A study of Caenorhabditis elegans with 2 samples.

Results

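The sites described here are the summits of EKL-4 binding that lay in the exons and 3' UTRs of protein-coding genes, away from gene starts. A summit is the base where the authors' caller placed the top of a peak. It was kept when it lay more than 500 bp from the 5' end of every protein-coding transcript and inside an annotated coding sequence (CDS), 5' UTR or 3' UTR of a nuclear protein-coding gene. Of the 2482 nuclear peaks in the conservative list made from both replicates, 271 met this rule (10.9%), of which 94 lay in a 3' UTR, 176 in CDS and 1 in a 5' UTR. Applied to each replicate's own thresholded list, the rule gave 138 sites in replicate 1 and 217 in replicate 2. The 271 sites lay in 256 host genes, and ekl-4 itself hosted none. The data are from chromatin immunoprecipitation with sequencing (ChIP-seq) on whole Caenorhabditis elegans of strain RW12207, in which the ekl-4 gene on chromosome I carries a TY1::EGFP::3xFLAG insertion made with CRISPR. Worms were bleached, starved as L1 larvae and collected as young adults at 65 h, chromatin was sonicated to 200 to 800 bp, and an antibody against GFP was used. There was 1 group with 2 biological replicates and no other genotype or treatment. All tissues of the animal were pooled, so a site bound in a few cells and a site bound weakly in many cells cannot be told apart.

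EKL-4 is related to human DMAP1, which is found in both NuA4/TIP60 complexes, which acetylate histones, and SWR1-type complexes, which exchange histone H2A for its variant H2A.Z in nucleosomes. Both kinds of complex are best known at promoters. The 3' UTR is the transcribed stretch after the stop codon that carries the cleavage and polyadenylation signal, most often AATAAA. The worm genome is compact, and a gene is often followed closely by the next gene on its strand (tandem) or by the end of a gene on the other strand (tail to tail).

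The sequences that follow show what the summits sat on, with positions on ce11, 1-based, read from the RefSeq genome of the same assembly. The first 2 are copies of CTGCGTCTC, a motif found near many main peaks. They lay under the 3' UTR summit of C05D11.8, the only site of the 271 with that motif within 100 bp, on opposite strands and centred 3 and 35 bp from the summit. Capitals mark that motif.
C05D11.8, III:6421213-6421241, plus strand: ccctcactgtCTGCGTCTCcacggcgtca
C05D11.8, III:6421175-6421203, minus strand: cggtcgatgcCTGCGTCTCtatcaaaccc
Next are E2F-type sites under the 3' UTR summit of klp-18 and the CDS summits of pqn-48 and idpp-2, centred 26, 22 and 22 bp from those summits. Capitals mark the E2F site.
klp-18, IV:7043659-7043685, minus strand: gtttcggaaaTTGCCGCgcacccctgg
pqn-48, II:4042878-4042904, minus strand: tttgagcagcTTCGCGCtggagttgaa
idpp-2, V:6416-6442, plus strand: aagaagactgTTGCCGCagctccttcg
Last are polyadenylation signals at gene ends beside summits. They show where genes on opposite strands ended beside a summit. The summit in ran-1 lay 82 bp from the end of ran-1 and 12 bp from the end of rib-2. The summit in F25B5.5 lay 79 bp from the end of ubq-1, and the one in F31E3.12 lay 60 bp from the end of eef-1A.1. Capitals mark AATAAA.
ran-1, III:10746581-10746609, minus strand: cttgttgcAATAAAttgtagcaccattcg
rib-2, III:10746637-10746665, plus strand: aaatataaAATAAAtcatggagattgaga
ubq-1, III:5943808-5943836, plus strand: gagctctgAATAAAttcattttcgtgtac
eef-1A.1, III:6970042-6970065, minus strand: ataAATAAAcattgaaaactgata

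The values used for each site are the signal the authors deposited with the peak and the signals of overlapping peaks in the ranked lists of replicates 1 and 2. The signal has no stated scale, so groups of sites are compared only within a list. Where values of replicate 1 and replicate 2 are set side by side, an offset between the 2 lists is not removed. Some sites were second summits beside a stronger one. Of the 271 sites, 31 had a signal under 50 in the conservative list, and 30 of these had another summit of that list within 260 bp. The exception was sams-1, an S-adenosylmethionine synthetase gene, with a signal of 39.4. The ranked peaks over these 31 sites had signals of 27.4 to 74.4 in replicate 1 and 43.3 to 136.9 in replicate 2. A second summit can take the value of its stronger neighbour where the same ranked peak overlaps them. The 2 summits in F10E7.9, with 118 and 3.56 in the conservative list, shared 49.2 in replicate 1 and 57.8 in replicate 2. Such replicate signals do not measure the second summits on their own. In all, 37 sites had a stronger summit within 260 bp, which leaves 234 without them.

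EKL-4 summits were denser in 3' UTRs than in coding sequence. Off gene starts there were 35.5 summits per Mb of 3' UTR (94 summits, 95% exact Poisson interval 28.7 to 43.4) and 9.81 per Mb of CDS (176 summits, interval 8.41 to 11.4), a ratio of 3.62. In the list of replicate 1 the densities were 21.9 per Mb of 3' UTR and 4.4 per Mb of CDS, a ratio of 4.97. In the list of replicate 2 they were 29.1 per Mb of 3' UTR and 7.69 per Mb of CDS, a ratio of 3.78. In the larger list the ratio was 3.09. The intervals of the 2 kinds did not overlap in any of these 4 lists. They cover counting error over peaks only, and peaks are not replicates of the experiment.

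**Figure D1:**
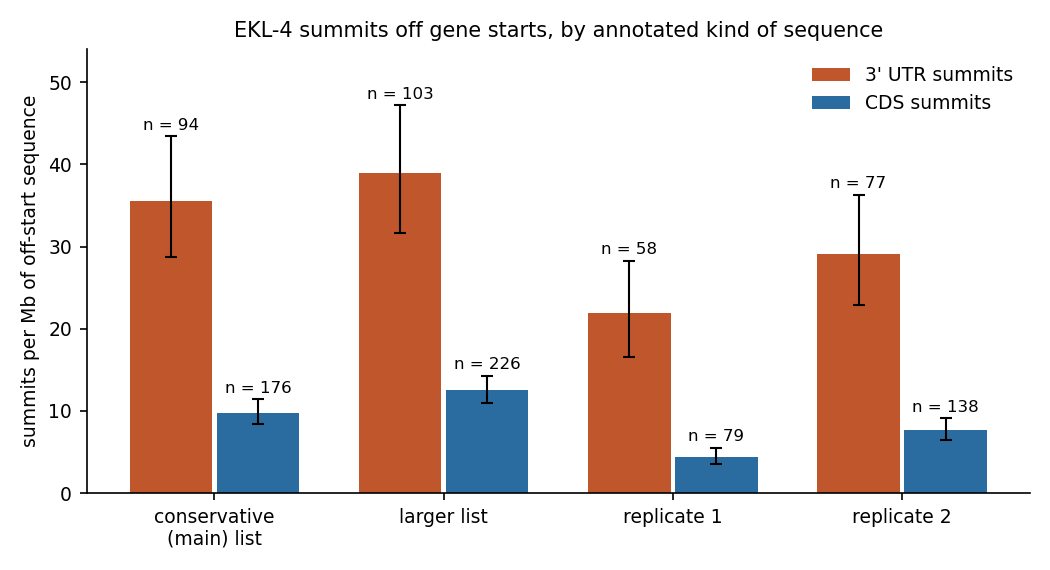
EKL-4 summits per Mb of annotated sequence more than 500 bp from every protein-coding 5' end, for 3' UTR (orange) and CDS (blue), in the conservative, larger, replicate 1 and replicate 2 lists. Bars are densities, error bars 95% exact Poisson intervals and n the number of summits; the 3' UTR bar is higher in each list, at 35.5 against 9.81 per Mb in the conservative list.

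Summits in CDS were densest near gene ends. At like distances from an end, the intervals of the 3' UTR and CDS densities overlapped in each of 5 distance ranges of the conservative list and of each replicate's list. Within 100 bp of the nearest protein-coding 3' end, on either strand, there were 39.2 summits per Mb of 3' UTR (interval 28.1 to 53.2) and 40.2 per Mb of CDS (23.8 to 63.6). From 100 to 200 bp the densities were 50.1 per Mb of 3' UTR (32.8 to 73.5) and 52.7 per Mb of CDS (38 to 71.2), again with overlapping intervals. From 200 to 500 bp they were 30.1 in 3' UTR (18.1 to 47.1) and 18.2 in CDS (13.3 to 24.4). From 500 to 1000 bp they were 17.3 in 3' UTR, on 5 summits (5.6 to 40.3), and 5.08 in CDS (3.01 to 8.03). Beyond 1000 bp only 3 summits lay in 3' UTR, at 18.3 per Mb (3.77 to 53.4), and CDS held 4.96 per Mb on 53 summits (3.71 to 6.49). In the larger list the intervals overlapped in each range but 200 to 500 bp, with 47.6 per Mb of 3' UTR (32.1 to 67.9) and 19.9 per Mb of CDS (14.7 to 26.2). In CDS the density was 6.95 per Mb beyond 200 bp (5.74 to 8.33) and 48.2 per Mb within 200 bp (36.8 to 62.1). In 3' UTR it was 24.9 per Mb beyond 200 bp (16.4 to 36.2) and 42.8 within 200 bp (33.2 to 54.4). The intervals of the kinds did not overlap over all sequence beyond 200 bp. There the kinds also differ in where their sequence lies: 0.63 of 1.08 Mb of 3' UTR is at 200 to 500 bp, and 10.7 of 16.7 Mb of CDS is beyond 1000 bp. Within 200 bp of a 3' end, replicate 1 had 28.1 summits per Mb of 3' UTR and 25.7 per Mb of CDS, and replicate 2 had 32.6 per Mb of 3' UTR and 33.7 per Mb of CDS. From 200 to 500 bp replicate 1 had 14.3 per Mb of 3' UTR (6.53 to 27.1) and 8.91 of CDS (5.59 to 13.5), and replicate 2 had 28.6 per Mb of 3' UTR (16.9 to 45.1) and 15.4 of CDS (10.9 to 21.1).

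**Figure D2:**
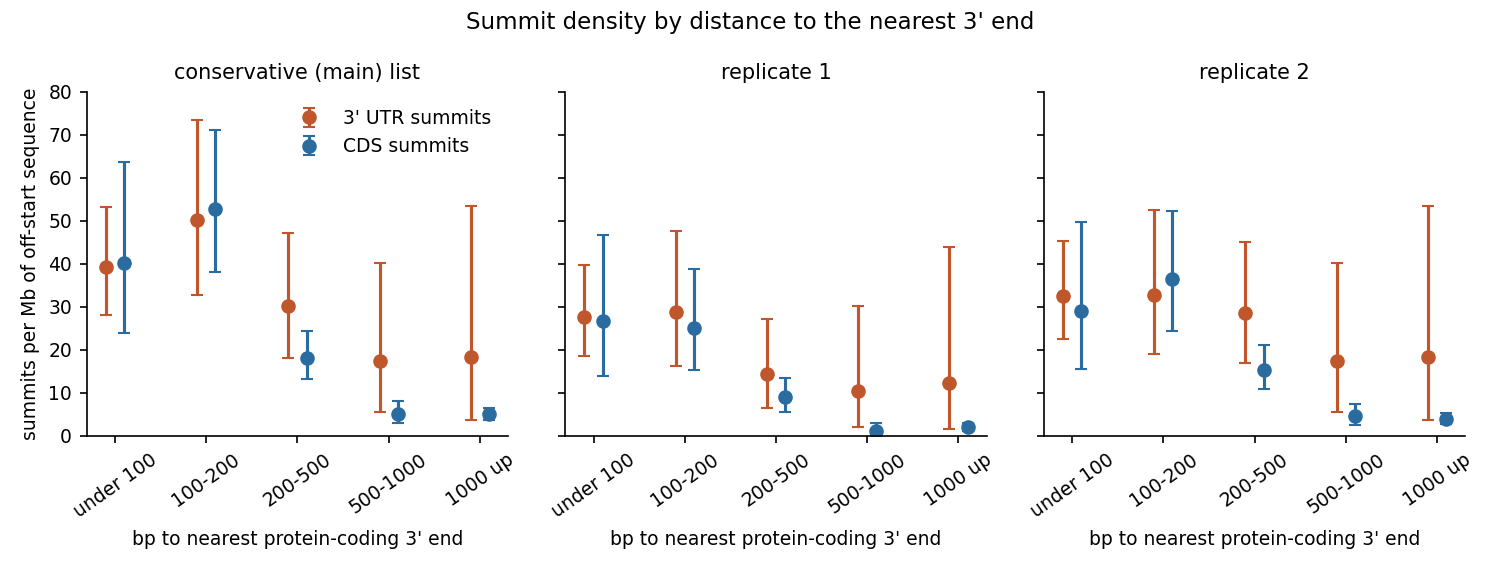
Summits per Mb of 3' UTR (orange) and CDS (blue) by distance in bp to the nearest protein-coding 3' end on either strand, in the conservative list and in each replicate's list. Points are densities and bars 95% exact Poisson intervals; the intervals of the kinds overlap at every distance in all 3 panels, and beyond 500 bp CDS of the conservative list is near 5 per Mb.

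Summits in CDS lay late in their host genes. The median distance to the host's 3' end was 131 bp for 3' UTR summits and 395.5 bp for CDS summits, against 156 bp for 3' UTR positions and 1434 bp for CDS positions taken at every 200th base of off-start sequence (13244 and 89717 tiled positions). Of the 176 CDS summits, 87 lay in the last coding exon of a gene with several and 87 in an internal one. A further 1 lay in a first one (C42D8.9) and 1 in a gene with a single coding exon (fbxb-14). The exon place of tiled CDS positions was not measured, so the exon counts alone do not show late placement. Of the CDS summits, 98 (55.7%, 95% Wilson interval 48.3 to 62.8) lay within 500 bp of the host's 3' end, against 19.7% of tiled CDS positions. The same share was 91.5% for 3' UTR summits (84.1 to 95.6) and 82.3% for tiled 3' UTR positions.

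The end of a gene on the other strand lay within 500 bp of 151 of the 271 sites (55.7%), and 120 had none. By kind, a protein-coding gene on the strand opposite the host ended that near to 54 of the 94 3' UTR summits (57.4%, 47.4 to 67.0), against 27.3% of tiled 3' UTR positions. It did so for 97 of the 176 CDS summits (55.1%, 47.7 to 62.3), against 5.81% of tiled CDS positions. Among sites within 500 bp of the host's own 3' end, the share was 62.8% of 3' UTR summits against 32.5% of tiled 3' UTR positions, and 91.8% of CDS summits (90 of 98, interval 84.7 to 95.8) against 25.5% of tiled CDS positions. A position in the host lies past the opposite gene's end unless the 2 genes overlap, so 92.6% of these 3' UTR summits did, against 90.1% of such tiled 3' UTR positions, and 99.0% of these CDS summits, against 97.9% of such tiled CDS positions. The median distance past that end was 104 bp for 3' UTR summits, against 135 bp for tiled 3' UTR positions, and 197 bp for CDS summits, against 278.5 bp for tiled CDS positions. Only genes lying wholly past the host's 3' end were taken as first neighbours. By that rule the first protein-coding neighbour was tail to tail for the hosts of 51 of 94 3' UTR summits (54.3%). For the hosts of CDS summits it was so for 88 of 176, against 38.4% of all protein-coding genes. An opposite gene that overlaps the host's end was passed over, so lin-29, opposite hmg-12, was counted as tandem. These shares therefore do not count all pairs that end together. Of CDS summits with an opposite end, 28 of 97 (28.9%) met a thresholded peak of each replicate, against 6 of 79 (7.59%) without one and 41.2% of all main peaks. Of 3' UTR summits, 40.7% with an opposite end and 30.0% without one did so. The measure of opposite ends was added after the data had been seen.

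**Figure D3:**
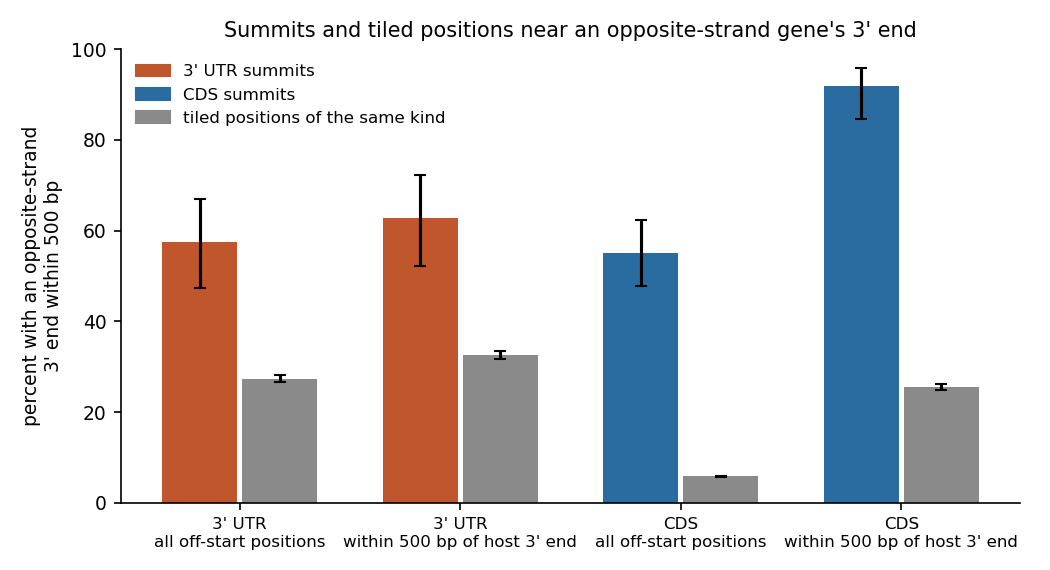
Percent of 3' UTR summits (orange), CDS summits (blue) and tiled off-start positions of the same kind (grey) with the 3' end of an opposite-strand protein-coding gene within 500 bp, over all positions and over those within 500 bp of the host's 3' end. Error bars are 95% Wilson intervals; the pair furthest apart is CDS near the host's end, at 91.8% against 25.5%.

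The genes that ended opposite a summit often had an EKL-4 summit at their own start. There were 147 such genes, and 55 of them (37.4%, interval 30.0 to 45.5) had a summit within 500 bp of one of their 5' ends, against 1278 of 19973 protein-coding genes (6.4%). Of the 256 host genes, 51 had one (19.9%, 15.5 to 25.2). By site, the host had a start summit for 25.5% of 3' UTR summits, against 8.1% of tiled 3' UTR positions, and for 18.2% of CDS summits, against 7.06% of tiled CDS positions. No such share was taken for genes that end opposite tiled positions.

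The 10 strongest 3' UTR summits had signals of 175.9 to 248.9, and all 10 met a thresholded peak of each replicate. The strongest was in the 3' UTR of lin-29, a zinc finger transcription factor of the heterochronic pathway, which times larval development (signal 248.9, II:11917686-11917882, with 94.2 in replicate 1 and 149 in replicate 2). Its summit lay 130 bp before the end of lin-29 and 129 bp past the end of hmg-12, a gene on the other strand. The C05D11.8 summit, which carried the CTGCGTCTC pair shown above, had a signal of 227, with 84.0 in replicate 1 and 129 in replicate 2. It had no opposite end within 500 bp. ZK418.11 (225, with 86.0 and 135 in replicates 1 and 2) ended opposite cpg-2, which encodes a chondroitin proteoglycan of the eggshell. The summit in klp-18, a kinesin of the oocyte meiotic spindle, had 215 in the conservative list and 79.7 and 123 in replicates 1 and 2. It lay 412 bp past the end of tin-9.1, a gene for a small Tim protein of mitochondrial import. The zig-11 summit (210) lay 155 bp past the end of cct-7, a chaperonin subunit gene, and was one of those with more signal in replicate 1 (113) than in replicate 2 (96.7). The ran-1 summit (206, with 57.7 and 143 in replicates 1 and 2) sat in a gene for the Ran GTPase of nuclear transport, in its overlap with rib-2, a glycosyltransferase gene of heparan sulfate synthesis. The tir-1 summit (193, with 96.9 and 103) lay 43 bp past the end of rpl-3, a gene for a large-subunit ribosomal protein. The remaining 3 of the 10 were cept-2 (178), R02F2.1 (177) and ekl-1 (176), a Tudor-domain gene of the small RNA pathways, and none of these 3 had an opposite end within 500 bp. The window of the ekl-1 summit held 56.7% repeated 31-mers. Of the 10, 6 had an opposite end, and in 5 of these 6 the opposite gene had a start summit.

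The 10 strongest CDS summits had signals of 158.9 to 268.6, all 10 met a thresholded peak of each replicate, and 9 of the 10 lay opposite a gene end. The strongest was in the last coding exon of lmd-2 (signal 268.6, I:4645387-4645644, with 110 in replicate 1 and 148 in replicate 2), 140 bp past the end of rpl-4, a ribosomal protein gene. The dos-3 summit (247, with 104 and 139 in replicates 1 and 2) was in the last of 11 coding exons, 171 bp past the end of zip-2, a bZIP transcription factor gene of the response to pathogens. D2030.12 (192, with 63.8 and 132) held a summit 73 bp past the end of prg-1, the Piwi protein of the germline. R12E2.13 (188) held one 193 bp past the end of rpn-8, a proteasome lid subunit gene. The F31E3.12 summit (175, with 95.3 and 75.9 in replicates 1 and 2) lay 60 bp past the end of eef-1A.1. That gene encodes the elongation factor that brings tRNA to the ribosome. A second summit of the same pair lay in the last coding exon of eef-1A.1 itself, with a signal of 110 in the conservative list. The 2 summits shared the value of 95.3 in replicate 1, so it does not measure either on its own. C36E8.4 (171) lay opposite tbb-2, a beta-tubulin gene, dhcr-7 (165) opposite rpl-2, F57F5.3 (162) opposite cpr-9, a cathepsin B-type protease gene, and F25B5.5 (159) opposite ubq-1, the polyubiquitin gene. The exception was mix-1, a condensin subunit gene that also acts in dosage compensation. Its summit (168, with 73.4 and 104.6 in replicates 1 and 2) was in coding exon 13 of 15, 1142 bp from the nearest 3' end, and 77 bp upstream of the snoRNA gene M106.6. The window of the dhcr-7 summit held 35.7% repeated 31-mers.

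**Figure D4:**
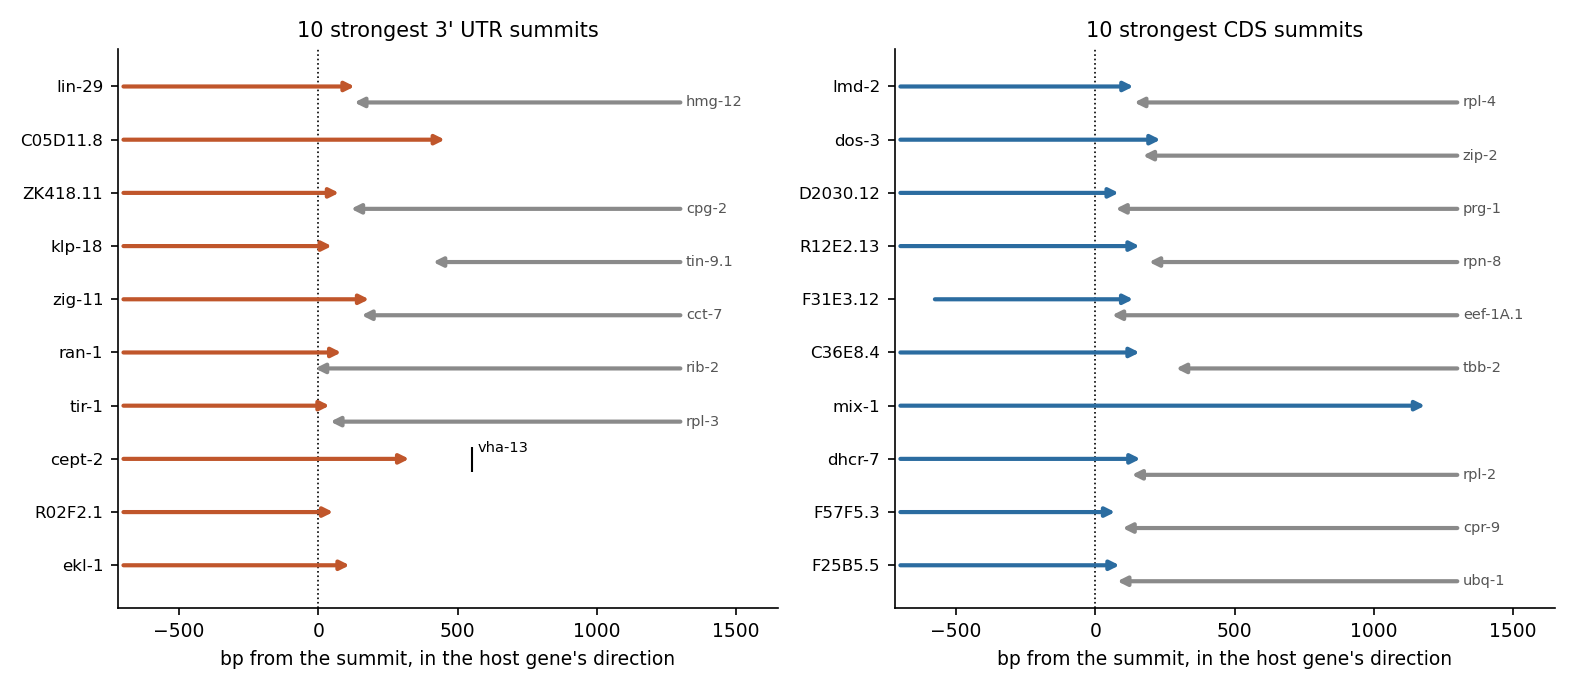
The 10 strongest 3' UTR summits (left) and the 10 strongest CDS summits (right), one per line, on a scale of bp from the summit in the direction of the host gene. Coloured arrows are host genes up to their 3' ends, grey arrows are opposite-strand genes that end within 500 bp of the summit, and black ticks are starts of the next downstream gene; genes are drawn only to a fixed distance, and 6 of 10 on the left and 9 of 10 on the right have a grey arrow.

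The strongest site of all was the single 5' UTR summit, in C34C12.2 on chromosome III (signal 345, rank 94 of the conservative list, with 181 in replicate 1 and 170 in replicate 2). It lay 2099 bp from the nearest protein-coding 5' end. Other sites lay far from every gene end, most of them in CDS. Of the 71 CDS summits more than 500 bp from any 3' end, 5 met a thresholded peak of each replicate (7.04%), against 29 of those within 500 bp (27.6%). Median replicate signals were 32.2 and 52.5 in replicates 1 and 2 for these 71, and 40.9 and 57.8 for those within 500 bp. The strongest after mix-1 were pks-1, a polyketide synthase gene (159, coding exon 22 of 31), glr-2, a glutamate receptor gene (147), and eef-1B.2, an elongation factor gene (129). Only 8 of the 3' UTR summits were that far from a 3' end, and 3 of these 8 met a peak of each replicate. They include 2 in mnk-1, a kinase gene whose human relatives act on a translation initiation factor. Another 1 was in lin-41, whose 3' UTR is the textbook target of the let-7 microRNA. This lin-41 site had a signal of 11.1, the lowest of the 8, and lay 257 bp from a stronger lin-41 summit. That stronger summit (111) lay 247 bp from the end of lin-41 and met a thresholded peak of neither replicate. The mnk-1 gene was the only host of 3 sites, with signals of 102, 100.5 and 69.9, and 13 other genes hosted 2.

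The next downstream gene on the host's strand was usually far away. The median distance from the summit to its start was 4726 bp for 3' UTR summits (quartiles 1932 and 12240 bp) and 5106 bp for CDS summits (2528 and 14230 bp). Tiled positions gave 4709 bp in 3' UTR and 5979 bp in CDS. The order of the kinds depended on the list: the medians were 3640 bp for 3' UTR and 4186 bp for CDS in replicate 1, and 4945 bp for 3' UTR and 4786 bp for CDS in replicate 2. The next gene started within 1000 bp of 10 of the 94 3' UTR summits (10.6%), against 13.7% of tiled 3' UTR positions, and of 7 of the 176 CDS summits (3.98%), against 5.72% of tiled CDS positions. Within 2000 bp the counts were 25 of the 3' UTR summits (26.6%), against 28.3% of tiled 3' UTR positions, and 28 of the CDS summits (15.9%), against 18.5% of tiled CDS positions. The intervals of all 4 shares held the tiled share. The next gene itself had a start summit for 19 of the 3' UTR summits (20.2%, 13.3 to 29.4) and 40 of the CDS summits (22.7%, 17.2 to 29.5), against 6.4% of all protein-coding genes. The first 2 shares are per site and the last is per gene, and no share was taken for the next gene of tiled positions.

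Sites with a near downstream start mostly had no opposite end, as had tiled positions. Of the 10 3' UTR summits with a next start within 1000 bp, 9 had no opposite 3' end within 500 bp, against 98.2% of such tiled 3' UTR positions. None of the 7 CDS summits had one, and 99.3% of such tiled CDS positions had none. The strongest of the 10 was in cept-2, a phospholipid synthesis gene, 326 bp before its end and 553 bp before vha-13, a gene for a subunit of the vacuolar proton pump (89.9 in replicate 1 and 83.1 in replicate 2). The ceh-8 summit, in a homeobox gene, lay 674 bp before col-63, a collagen gene, with 82.0 and 78.5 in replicates 1 and 2. Neither vha-13 nor col-63 had a start summit. The eef-1B.2 summit in CDS lay 659 bp before hrpu-1, which had one, with 40.3 and 71.1 in replicates 1 and 2. Among the 10 strongest of each kind the next start lay 553 to 19757 bp away for 3' UTR and 1876 to 28956 bp away for CDS, and that gene had a start summit for 4 of the 10 in 3' UTR and 5 of the 10 in CDS.

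Genes for the translation machinery and the germline were among those whose ends lay at a site. Of 81 cytosolic ribosomal protein genes, 14 had a site within 500 bp of their 3' end (17.3%), against 315 of 19973 protein-coding genes (1.58%). These 14 ends met 16 sites, 5 in 3' UTR and 11 in CDS. A host on the opposite strand puts the summit past a gene's end unless the 2 genes overlap there. For 12 of the 16 the host was the opposite gene, and the summit lay 43 to 444 bp past the ribosomal gene's end. Of these, the sites at rpl-4, rpl-3, rps-1 (in ins-17, signal 169), rpl-2, rpl-38 (in lgc-31, 159) and rpl-35 (in tag-307, 152) met a thresholded peak of each replicate. Those at rpl-22, rpl-33, rps-17, rpl-30 and rpl-34 did not. The site at 444 bp was a second summit at rpl-33, with a signal of 3.56. For the other 4 of the 16, in rps-13, rpl-2, rps-2 and rps-15, the summit lay inside the ribosomal gene, with signals of 102, 60.5, 55.2 and 16.1. In all, 7 of the 16 met a thresholded peak of each replicate, against 41.2% of all main peaks. The rpl-3 gene also hosted a CDS summit 1055 bp before its end (108), away from any gene end. Elongation factor genes had 2 of 6 ends at a site, eef-1A.1 and eef-1G (in F17C11.22, 82.9). P granule and small RNA genes had 4 of 22: ekl-1, prg-1, the Vasa-type helicase gene glh-1 (74.7) and the P granule scaffold gene pgl-1. The pgl-1 site had 35.96 in the conservative list, beside a stronger summit. The ranked peaks over it had 64.8 and 137 in replicates 1 and 2 and may be those of that stronger summit. Eggshell and maternal genes had 3 of 25, at cpg-2, at egg-1 (in B0244.9, 107), whose product acts in fertilization, and at puf-3 (in afmd-2, 116), a Pumilio-type RNA-binding protein gene. The yolk protein gene vit-2 ended at a site in C42D8.9 (131, with 40.1 and 98.4 in replicates 1 and 2), the only one of 6 vitellogenin genes. Host genes of a site were 260 of the 19973 protein-coding genes (1.3%), a second host in overlapping genes included. Of 13 genes for NuA4 and SWR1 type complexes, 1 hosted a site, the ATPase gene ruvb-2 (69.7). Of 9 HSP70, HSP90 and HSP110 genes 1 did, hsp-1, with a CDS summit of 114. No gene of the histone (59), cuticle collagen (156), synMuv and DREAM (21), Ras-ERK (21), large muscle (10) or RNA polymerase II and Mediator (17) lists hosted a site or ended at one. At the shares over all genes, 1.3% and 1.58%, lists of this size other than collagens would hold under 1 such gene, so these zeros are near the background. A gene of 500 bp or less cannot host a site under the distance rule, and the lengths of the listed genes were not compared.

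Median signals were lower at these sites than in the list as a whole. The median in the conservative list was 96.9 for 3' UTR summits (quartiles 76.5 and 130), 87.1 for CDS summits (75.7 and 108), and 108 for all 2482 peaks. In replicate 1 the medians were 45.0 for 3' UTR, 37.0 for CDS and 47.1 for all peaks, and in replicate 2 they were 61.0 for 3' UTR, 56.1 for CDS and 65.3 for all peaks. Replicate 2 gave the higher value at 84 of 94 3' UTR summits and 167 of 175 CDS summits, and at 2083 of 2443 peaks of the whole list. The remaining CDS summit, in Y47G6A.33, had no overlapping peak in the ranked list of replicate 2. Thresholded peaks of each replicate were met by 34 of 94 3' UTR summits (36.2%, 27.2 to 46.2) and 34 of 176 CDS summits (19.3%, 14.2 to 25.8), against 1022 of 2482 peaks in the whole list (41.2%). All sites together gave 69 of 271 (25.5%). A thresholded peak of neither replicate was met by 36.2% of 3' UTR summits and 53.4% of CDS summits, against 29.0% of the whole list.

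**Figure D5:**
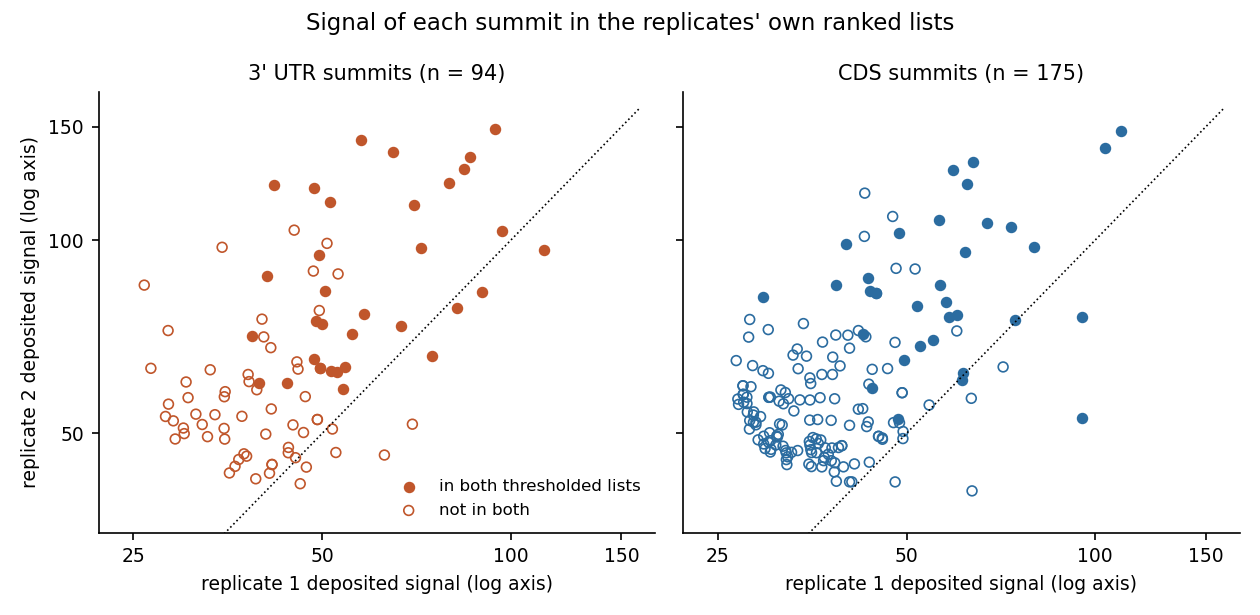
Deposited signal of each 3' UTR summit (left) and CDS summit (right) in the ranked list of replicate 1 (x) and of replicate 2 (y), on log axes, with the dotted line where they are equal. Filled points met a thresholded peak of each replicate (34 of each kind); most points lie above the line, 84 of 94 on the left and 167 of 175 on the right.

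Median GC was higher under the sites than at tiled positions of the same kind. From 100 bp before the summit to 100 bp after it, median GC was 35.8% for 3' UTR summits, against 32.3% for tiled 3' UTR positions, and 43.3% for CDS summits, against 39.8% for tiled CDS positions. Among positions within 500 bp of the host's 3' end it was 35.8% for 3' UTR summits and 31.8% for tiled 3' UTR positions, and 41.0% for CDS summits and 38.3% for tiled CDS positions. E2F-type sites, which are TTCCCGC in one form, TTCGCGC in another, TTGCCGC in the next or TTGGCGC in the last, were searched on both strands of the same windows. They were in those of 5 of the 3' UTR summits (5.32%) and 15 of the CDS summits (8.52%). All main peaks held them in 16.4%, tiled 3' UTR positions in 4.01% and tiled CDS positions in 4.6%. CTGCGTCTC, also on either strand, was in 1 of the 3' UTR windows (1.06%) and none of the CDS windows (0 of 176, interval up to 2.14%), against 7.05% of all main peaks, 0.385% of tiled 3' UTR positions and 0.158% of tiled CDS positions. AATAAA on the host's strand was in 38.3% of 3' UTR windows (29.1 to 48.4), against 32.6% of tiled 3' UTR positions, and in 8.52% of CDS windows (5.23 to 13.6), against 11.0% of tiled CDS positions. With 50 bp on each side the order in 3' UTR turned, with 15 of the 94 summits (95% interval 9.92 to 24.7%) against 20.3% of tiled positions. On the other strand it was in 42.6% of 3' UTR windows, against 42.0% of tiled 3' UTR positions, and in 9.66% of CDS windows (6.12 to 14.9), against 15.3% of tiled CDS positions. The repeat GAGAGAGA was in none of the 94 3' UTR windows (interval up to 3.93%), against 2.69% of tiled 3' UTR positions, and in none of the 176 CDS windows, against 0.621% of tiled CDS positions. All main peaks held it in 5.04%. With 200 bp on each side, 2 of the 94 3' UTR windows held it. A match of letters is a description and not a binding site.

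An annotated noncoding gene lay at 32 of the 271 sites (11.8%), piRNA genes aside. Shares at noncoding genes were not taken over all main peaks or tiled positions, so these counts cannot be called low or high. Of the 8 3' UTR summits more than 500 bp from every 3' end, 5 were at a noncoding gene, as were 10 of the 71 such CDS summits. Inside such a gene or within 500 bp of its start lay 14 of the 94 3' UTR summits (9 of them at unclassified ncRNA genes) and 18 of the 176 CDS summits (6 at ncRNA and 6 at snoRNA genes), piRNA genes aside. The 4 summits at tRNA genes were in W02G9.3, mdf-2, F49C5.9 and srv-16, and 5 sites lay at piRNA genes. By chromosome, the X held 18 of the 271 sites (6.64%), 3 in 3' UTR and 15 in CDS, against 299 (12%) of the 2482 main peaks. Repeated 31-mers filled over 10% of the window at 12 sites. Their mean share of the window was 1.73% over all sites, against 9.17% over all main peaks. Neither this share nor that of the X was taken over tiled positions, so neither can be called low for CDS and UTR sequence. At the edge of the distance rule, the nearest sites kept were in alh-4 (503 bp from a 5' end, signal 81.9), nhl-2 (505 bp, 88.0) and neg-1 (506 bp, 96.1). The nearest summits left out were in pisy-1 (487 bp, 82.1), F35C8.5 (477 bp, 17.4) and zig-7 (475 bp, 197).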

How the data were processed

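Peaks were called by the authors on ce11 against a control alignment and ranked by the irreproducible discovery rate, per the accompanying text files. Which aligner and caller were used is not given in the sources used here, and control libraries were not analysed here. The signal deposited by the authors is a peak strength against that control, and no source states its scale. A further input that the text files do not describe entered the thresholded lists. Read depth is unknown from these files. From them, summits were placed on the Ensembl 115 annotation of WBcel235, whose chromosome lengths are those of ce11. CDS took precedence over 5' UTR and 3' UTR where transcripts differ, and a site with several hosts was given to 1. Density is summits per Mb of off-start sequence of a kind with 95% exact Poisson intervals; shares have 95% Wilson intervals. Both cover counting error only. No test between conditions exists with 1 group, so results are descriptions. Meeting a replicate's peak means an overlap of at least 1 bp, and the signal in a replicate is that of the overlapping ranked peak with the nearest summit. A gene has a start summit where a main summit lies within 500 bp of a 5' end of its coding transcripts. The procedures were tested on simulated data. Named genes are the hosts of the 10 strongest 3' UTR, 10 strongest CDS and up to 5 strongest 5' UTR summits, hosts of 3 or more sites, hosts in a gene list, ekl-4 and the 3 sites on each side of the 500 bp rule; others were chosen after their values were seen. The sites and the 13 gene lists were chosen with earlier results of these data known. The software was scipy 1.17.1, pandas 2.3.3 and numpy 2.4.6 under Python 3.11.15, with matplotlib 3.10.9 for plots.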

Additional observations from a re-analysis of the deposited data

How the results depend on the processing

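No ratio of 3' UTR over CDS changed direction under any alternative, but the order of the kinds in distance to the next gene did. Of 118 values, 83 stayed within a set limit. That limit was the spread between the replicates, the value's interval or, for the number of sites, 1.5 times. For GC it was the standard deviation over sites, 5.99 points in 3' UTR and 6.64 in CDS. Each replicate's own list in place of the conservative list gave 138 to 217 sites, a density ratio of 3' UTR over CDS of 3.78 to 4.97 and a median signal ratio of 1.03 to 1.07. It also gave medians to the next gene of 3640 to 4945 bp (3' UTR) and 4186 to 4786 bp (CDS), medians to the host's 3' end of 108 to 124 bp (3' UTR) and 282 to 426 bp (CDS), and an opposite-strand end at 60.3 to 61% of 3' UTR and 47.1 to 65.8% of CDS summits. Summits at or above the list's median signal left 79 sites, as fewer peaks enter, with a density ratio of 5.24, 6424 bp (3' UTR) and 3506 bp (CDS) to the next gene, 112 bp (3' UTR) and 184 bp (CDS) to the host's 3' end, and an opposite end at 67.6% of 3' UTR and 79.5% of CDS summits. The larger list gave 155 bp (3' UTR) and 540 bp (CDS) to the host's 3' end and an opposite end at 46% of CDS summits. A distance of 250 bp from gene starts gave a signal ratio of 1.07, 116 bp to the host's 3' end in 3' UTR and 4610 bp to the next gene in CDS. With 1000 bp, 3' UTR summits lay 143 bp from the host's end and 6658 bp from the next gene. Without second summits, an alternative added after seeing the data, the 3' UTR median to the host's end was 143 bp. In the ranked lists 100% of 3' UTR and 99.4% of CDS summits met a peak of each replicate, as those lists have no threshold. For the other changes the cause was not tested. Counting the starts of all biotypes, giving 3' UTR precedence, leaving out repeated sequence and requiring 50% overlap moved no value beyond those limits. Neither did windows of 50 or 200 bp on each side of the summit for GC, but the GC limit is wide. Median GC of CDS summits was 45.5% with 50 bp, against 40.6% for tiled CDS positions. With 200 bp the medians were 40.5% for CDS summits and 38.7% for tiled CDS positions. For motifs, the share of summits minus that of tiled positions turned in sign for E2F-type sites in 3' UTR (-0.22 percentage points with 200 bp on each side) and for AATAAA on the host's strand, in 3' UTR (-4.3 with 50 bp) and in CDS (6 with 200 bp). With 200 bp it was -2.7 for GAGAGAGA in 3' UTR, against -2.69 with 100 bp. In CDS it was -1.32 for GAGAGAGA and -0.425 for CTGCGTCTC with 200 bp. No CDS summit window held either motif, so there only the tiled share changed. The alternatives for the opposite-strand ends were also added after seeing the data. No paired analysis was possible because there was only 1 group. Intervals over peaks do not measure the spread between animals, and 2 replicates give no test of the kinds.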
